A study of Mus musculus with 11 samples.

Results

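Rasd1, Rasd2, Rasgrp1, Rasgrp2, Rasgrf1, Rasgrf2 and Rap1gap are 7 genes that switch or modulate the small GTPases Ras and Rap. They were chosen by name for this role, by a rule that uses no measured value, though with earlier results of these data known, and were matched from symbol to Ensembl identifier. All 7 were found among the 52550 genes of the count table, and all 7 were among the 15373 genes kept after a filter on low counts. They are followed here across 11 RNA-seq libraries of the mouse nucleus accumbens shell, the ventral part of the striatum.

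The series asked how gene expression changes when signalling through the retinoic acid receptor RARβ is lowered in mice that carry the R6/1 transgene of Huntington disease. Each library came from 1 animal, 8 weeks old, on a CBA/C57BL6J/129svEmx mixed background. The labels give an animal code and a library code number but neither the R6/1 nor the Rarb genotype of any animal, so every library was left without a group and no genotypes were compared. Libraries are named by animal code: m115, m49, m47, m74, m73 and m101 carry library codes 1, 2, 3, 5, 6 and 7, and m57, m44, m61, m89 and m83 carry codes 9, 10, 12, 13 and 14. What the code number stands for is not given in the sources used here, and where values are set out by code they are a description with no test.

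Ras and Rap cycle between an inactive state bound to GDP and an active state bound to GTP. Exchange factors load them with GTP and GTPase activators make them hydrolyse it. In striatal projection neurons, which carry dopamine receptors and make up most neurons of the nucleus accumbens, this cycle links calcium, diacylglycerol and cyclic AMP to the MAP kinase ERK. Rasd1 (Dexras1) and Rasd2 (Rhes) are Ras-like GTPases, and Rasd2 is known for high expression in the striatum and for binding mutant huntingtin. Rasgrp1 and Rasgrp2 (CalDAG-GEFI) are exchange factors that respond to diacylglycerol or calcium, the first acting mainly on Ras and the second mainly on Rap. Rasgrf1, an imprinted gene expressed from the paternal copy in brain, and Rasgrf2 encode exchange factors that bind calmodulin. Rap1gap encodes a GTPase activator that turns Rap off.

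In mm10 and GENCODE M21, Rasd1 (ENSMUSG00000049892) lies at chr11:59963181-59964944 on the minus strand. Rasd2 (ENSMUSG00000034472) lies at chr8:75213944-75224113 on the plus strand. Rasgrp1 (ENSMUSG00000027347) lies at chr2:117279993-117343001 on the minus strand, and Rasgrp2 (ENSMUSG00000032946) at chr19:6399340-6415216 on the plus strand. Rasgrf1 (ENSMUSG00000032356) lies at chr9:89909908-90026977 on the plus strand, and Rasgrf2 (ENSMUSG00000021708) at chr13:91880400-92131656 on the minus strand. Rap1gap (ENSMUSG00000041351) lies at chr4:137664726-137729861 on the plus strand. Rasgrp2 shares 265 exon bases with the antisense gene Gm14965, which held 0 to 0.307 CPM (counts scaled to library size) and at most 0.605% of the Rasgrp2 level in any library. Rap1gapos, antisense to Rap1gap, shared 0 exon bases with it and had 0 counts in all libraries.

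RefSeq start sites (GRCm38.p6) were listed for 6 of the 7 genes. The bases before the start are shown for Rasd2 and Rasgrp2, the 2 genes whose levels separated the library codes, and for Rasgrf1 and Rasgrf2, 2 exchange factors whose levels did not. Each window holds the 250 bases before the start, and only its longest stretch outside annotated exons is printed, 5′ to 3′ on the strand of the gene. Capitals mark a GC box (GGGCGG or its reverse complement CCGCCC) or a cyclic AMP response element half-site (TGACG or CGTCA).
Rasd2, chr8:75213694-75213943, plus strand: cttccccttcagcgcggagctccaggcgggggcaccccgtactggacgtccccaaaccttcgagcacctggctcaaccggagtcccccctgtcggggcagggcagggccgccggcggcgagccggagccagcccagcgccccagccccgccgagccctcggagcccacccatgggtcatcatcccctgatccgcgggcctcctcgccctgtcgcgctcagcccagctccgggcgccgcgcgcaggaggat
Rasgrp2, first start, chr19:6399625-6399745, plus strand: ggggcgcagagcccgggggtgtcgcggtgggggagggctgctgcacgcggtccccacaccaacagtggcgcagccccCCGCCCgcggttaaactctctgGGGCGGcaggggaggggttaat
Rasgrf1, chr9:89909525-89909774, plus strand: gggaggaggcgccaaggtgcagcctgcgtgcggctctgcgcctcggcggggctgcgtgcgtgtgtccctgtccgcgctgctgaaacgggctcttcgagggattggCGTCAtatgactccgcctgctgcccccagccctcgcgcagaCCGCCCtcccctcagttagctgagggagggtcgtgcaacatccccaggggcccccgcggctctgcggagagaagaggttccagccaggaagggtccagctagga
Rasgrf2, chr13:92131829-92132078, minus strand: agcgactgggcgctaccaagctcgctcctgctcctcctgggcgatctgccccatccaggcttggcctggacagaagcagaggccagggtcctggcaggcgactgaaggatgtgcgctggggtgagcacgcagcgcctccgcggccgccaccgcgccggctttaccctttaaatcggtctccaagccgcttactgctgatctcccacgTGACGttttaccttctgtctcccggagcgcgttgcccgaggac
Rasd2 held none of the motifs searched in a window of 75.2% G and C, against a median of 52.4% over all 32851 windows of this length. The first Rasgrp2 window held 5 GC boxes, of which 2 lie in the stretch printed and 2 overlap each other, and its second window, all in annotated exons, held 2. Rasgrf1 held 1 GC box and 1 TGACG half-site, and Rasgrf2 held 1 TGACG half-site. A GC box on either strand was present in 32.7% of all windows and TGACG in 17.8%. The nuclear receptor half-site AGGTCA, the core of retinoic acid response elements, was in none of the 13 windows of the 6 genes and in 14.02% of all windows, searched on both strands. Only these exact letters were searched, so variants of the half-site would be missed. Several Rap1gap windows among the 13 overlap each other, so the 13 are not separate sequences. The full response element TGACGTCA, which contains TGACG, was also in none of the 13 and in 1.55% of all. The glucocorticoid receptor half-site AGAACA was in 1 window, the Rap1gap start numbered 4, and in 16.1% of all. These are letters in a window and say nothing on whether a factor binds there.

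The libraries held 24840981 to 48825783 counts in genes, with a median of 36252983. No 2 libraries agreed within sampling noise. Markers of the striatum were present throughout: Ppp1r1b, which encodes DARPP-32, ranged from 438 to 1352 CPM, and no marker on any cell type list lay at or under the level of 3 counts. Slc17a7, a transporter of glutamatergic neurons from outside the striatum, was also present, at 636 to 2118 CPM. The summed level of 11 projection neuron markers was 3064 to 3955 CPM in the libraries coded 1 to 7 and 5931 to 7022 CPM in those coded 9 to 14. In bulk tissue, fewer cells of a type and less RNA per cell cannot be told apart.

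The 2 Ras-like GTPases differed widely in level. Rasd2 stood at a median of 150 CPM and Rasd1 at 3.64 CPM, and per kilobase of exon Rasd2 was 14.96 to 32.6 times as high as Rasd1 across the 11 libraries, with a median of 20.6. Per kilobase of the longest coding transcript the range was 16.9 to 36.9.

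Rasd2 separated the library codes without overlap. It held 127, 150, 105, 121, 126 and 122 CPM in libraries m115, m49, m47, m74, m73 and m101. In libraries m57, m44, m61, m89 and m83 it held 194, 263, 234, 270.0 and 269 CPM. The lowest library coded 9 to 14, m57, was above the highest coded 1 to 7, m49, and the median of the former was 2.11-fold that of the latter. Its highest level was 2.57 times the lowest, with a 95% Poisson interval of 2.47 to 2.67 that covers counting error only. Reads amplified by PCR without molecular identifiers are not independent molecules, so the intervals given here are the narrowest that counting allows.

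Rasd1, which is known as a gene induced by glucocorticoids, was the least abundant of the 7 and the least precisely measured, from 82 to 329 counts a library. It held 3.14, 4.62, 3.56, 2.60, 2.08 and 3.07 CPM in the 6 libraries coded 1 to 7, listed as above. In the 5 coded 9 to 14 it held 4.68, 8.08, 3.64, 6.58 and 7.22 CPM. Libraries m44, m89 and m83 stood clearly above the rest, m57 lay just above m49, and m61 lay inside the range of codes 1 to 7. The Poisson interval of a single Rasd1 value reached 10.96% to 22.3% to either side, so m57 and m49 were not distinguishable at this depth. The highest level was 3.89 times the lowest (95% Poisson interval 3.05 to 4.94).

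Among the exchange factors, Rasgrp2 was the 1 that separated the library codes without overlap. Rasgrp2 levels in libraries coded 1 to 7 were 41.2, 42.4, 34.8, 43.9, 32.9 and 46.7 CPM. In libraries coded 9 to 14 they were 59.6, 92.7, 61.4, 111.8 and 111.2 CPM. No library of one set reached into the other, and the medians, 41.8 and 92.7 CPM, differed 2.20-fold. Within codes 9 to 14, m57 and m61 lay close together and well below m44, m89 and m83. The highest level was 3.40 times the lowest (95% Poisson interval 3.19 to 3.61).

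Rasgrp1 varied less than its relative. It held 387, 366, 392, 310.3, 357 and 353 CPM in codes 1 to 7, and 559, 494, 531, 519 and 375 CPM in codes 9 to 14. Of the 5 libraries coded 9 to 14, m83 alone fell within the range of codes 1 to 7, below both m115 and m47. This library was also one of the 2 with the highest Rasgrp2, and the ratio of Rasgrp1 to Rasgrp2 per kilobase of exon ran from 7.46 in m83 to 24.9 in m47. Per kilobase of the longest coding transcript, the same ratio ran from 1.48 to 4.94, so its size depends on the length used.

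Rasgrf1 was the steadiest of the 7. Its lowest level was 292 CPM, in m61, its median 367 CPM and its highest 498 CPM, in m49, and the codes overlapped, with medians of 398 CPM in codes 1 to 7 and 355 CPM in codes 9 to 14. It was the only member whose median was lower in codes 9 to 14, with a log2 difference of -0.16.

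Rasgrf2 was set apart by 1 library. Library m57 held 114 CPM, while the other 10 held 34.1 CPM (m101) to 62.2 CPM (m89). The medians were 47.2 CPM in codes 1 to 7 and 55.5 CPM in codes 9 to 14, with overlap. The ratio of highest to lowest was 3.33 with m57 and 1.82 without it. Rasgrf1 was 3.18 times (m57) to 10.3 times (m49) as high as Rasgrf2 per kilobase of exon, and 4.63 to 14.95 times as high per kilobase of the longest coding transcript.

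Rap1gap, the activator, held 325, 366, 296, 347, 295 and 324 CPM in codes 1 to 7 and 453, 524, 267, 431 and 493 CPM in codes 9 to 14. Of the latter, 4 libraries were above every library coded 1 to 7. The fifth, m61, held the lowest Rap1gap of all 11, and it was also the library with the highest share of mitochondrial counts, 7.21% against 2.90% in the lowest. That library also held the fewest counts in genes, 24840981, and the fewest genes with any count, 20524. The part of these properties in the result was not tested.

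**Figure D1:**
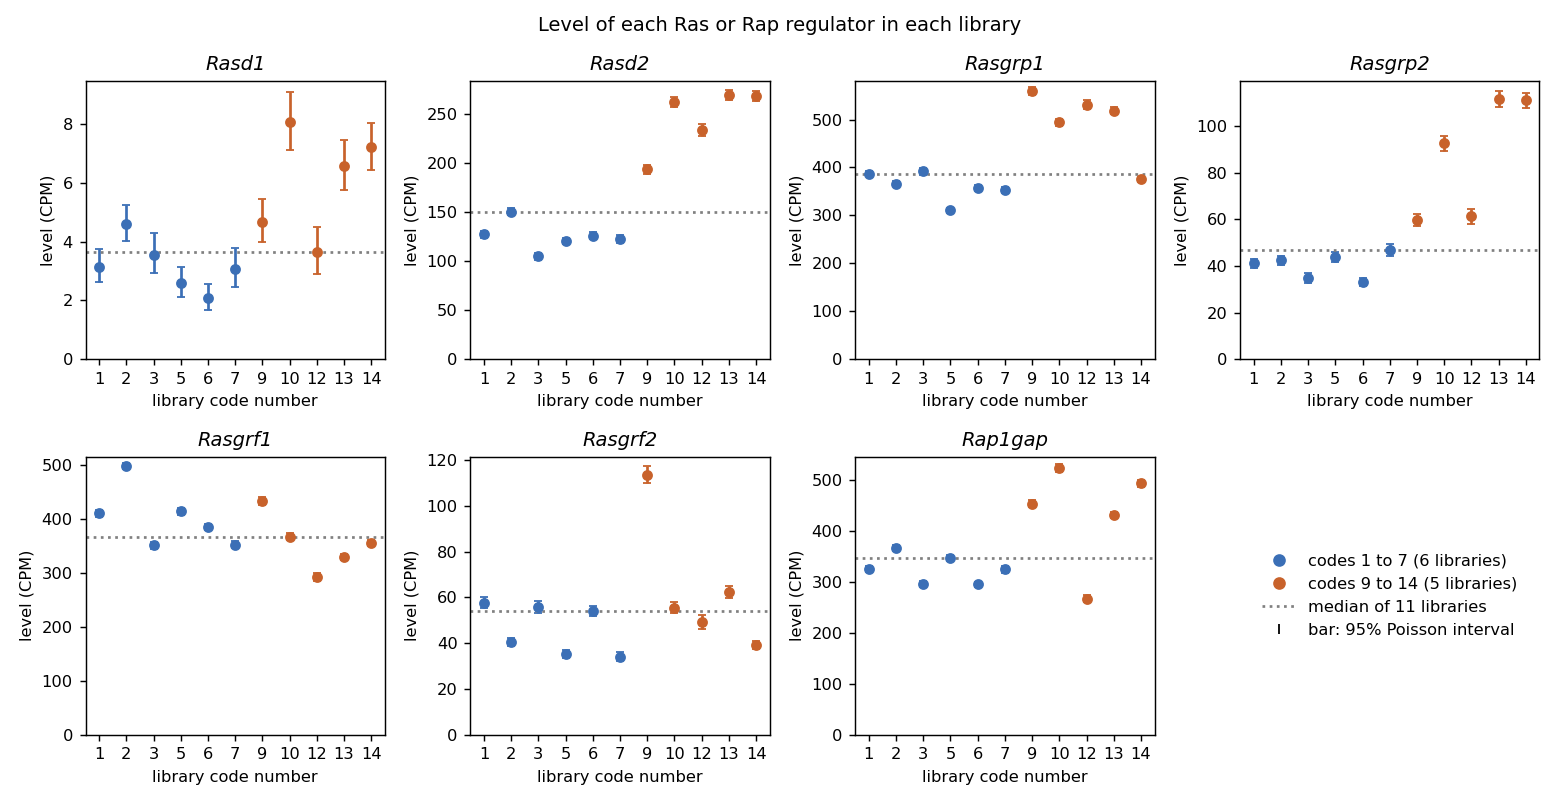
Level of each gene in CPM (linear axis from 0) against library code number, 1 point per library, with bars for the 95% Poisson interval and a dotted line at the median of 11 libraries. Rasd2 and Rasgrp2 are the genes whose 5 libraries coded 9 to 14 all lie above the 6 coded 1 to 7, and the Rasgrf2 panel shows m57 (code 9) alone at 114 CPM.

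Set against all genes, the spread of these 7 was mixed. A ratio of highest to lowest of 2 or more was seen for 4 of the 7 (Rasd1, Rasd2, Rasgrp2 and Rasgrf2), and for 48.6% of all genes kept. The members' median ratio was 2.57 and that of all genes 1.96. The biological coefficient of variation, which is the relative spread left after counting noise, was highest for Rasgrp2 (0.448) and Rasd1 (0.424), followed by Rasd2 (0.367) and Rasgrf2 (0.351). Rap1gap (0.227) and Rasgrp1 (0.1996) lay near the median over all genes of 0.201, and Rasgrf1 (0.145) lay below it. Rasgrp2 varied more than 90.9% of genes kept and Rasgrf1 more than 26.4%.

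All libraries coded 9 to 14 were above all coded 1 to 7 for 2 of the 7 members and for 1.67% of all genes kept, and the reverse was seen for 0 members and 0.65% of genes. With library totals in place of TMM scaling these shares of all genes became 1.22% and 1.39%, while Rasd2 and Rasgrp2 were still the 2 members without overlap. The median log2 difference between the codes was 0.52 over the members and -0.02 over all genes. Leaving out 1 library brought in a further member in 3 cases: Rasd1 without m49, Rap1gap without m61 and Rasgrp1 without m83. The share of all genes kept that were higher without overlap was then 2.68%, 2.37% and 1.99%.

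Levels of different genes were compared per kilobase only. Per kilobase of all annotated exon bases, the medians ran from Rasgrp1 (69.2 CPM per kb) through Rap1gap (53.9), Rasd2 (47.4), Rasgrf1 (33.2), Rasgrf2 (5.84) and Rasgrp2 (3.77) to Rasd1 (2.26). Rasgrp1 was above Rap1gap in 10 of 11 libraries, and Rasd2 above Rasgrf1 in all 11. Rap1gap and Rasd2 changed places in 4 libraries, as did Rasgrf2 and Rasgrp2, so these neighbours do not have a fixed order.

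The order depended on the length used. Rasgrp2 has 12384 annotated exon bases but a longest coding transcript of 2296 bases, and per kilobase of the latter it stood at 20.4 CPM per kb, above Rasgrf2 (9.30) in all 11 libraries. On that scale Rap1gap (83.7), Rasgrf1 (77.0) and Rasgrp1 (74.1) were not ordered, each pair of neighbours holding its order in 6 of 11 libraries. Rasd2 (53.5) followed and was below Rasgrp1 in 10 of 11, and Rasd1 (2.26) remained lowest.

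**Figure D2:**
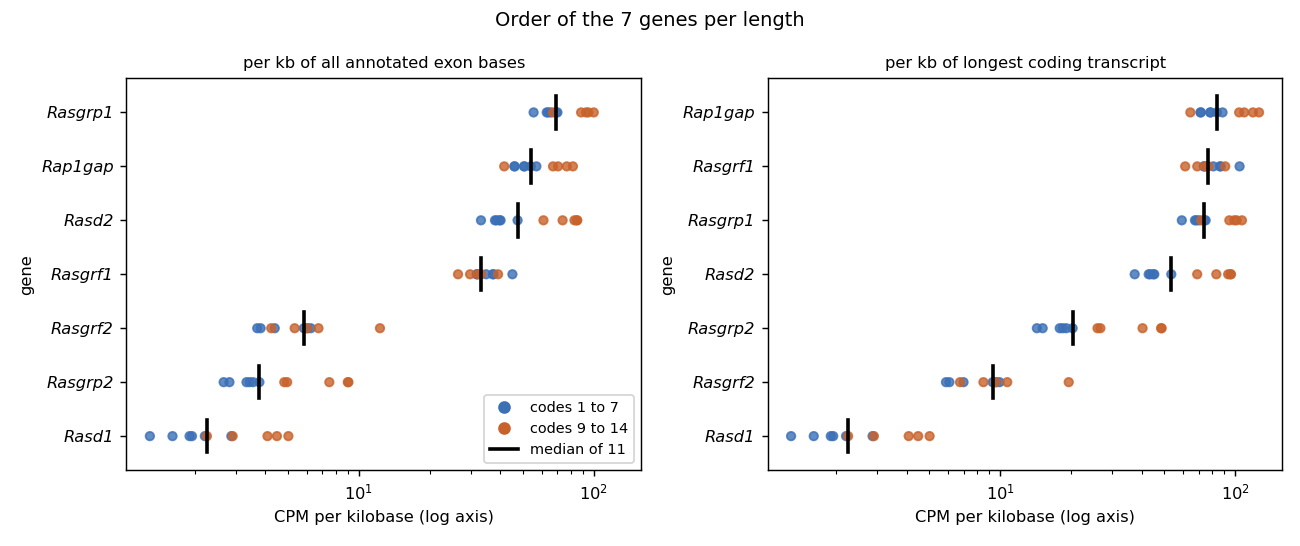
CPM per kilobase (log axis) for each gene, 1 point per library coloured by code, with a bar at the median of 11, per kilobase of all exon bases (left) and of the longest coding transcript (right). Rasd1 is lowest on both scales at a median of 2.26, while Rasgrp2 moves from below to above Rasgrf2.

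The members were then related to marker and response scores over the 11 libraries, 6 scores for 7 members, and to each other in 21 pairs, which makes 63 relations. Each marker or response score is the mean of its genes' log2 levels, centred on each gene's median. The 6 scores include a length measure, which is built otherwise and defined below. Pearson's r and Spearman's rho of log2(CPM + 0.5) were tested by 100000 permutations of the libraries, two-sided, with Benjamini-Hochberg adjustment over all genes kept. Values of r within the 6 libraries coded 1 to 7 and within the 5 coded 9 to 14 are set beside the pooled one as a description with no test, and the latter rest on few points.

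The projection neuron score lay between -0.53 and -0.11 in codes 1 to 7 and between 0.34 and 0.63 in codes 9 to 14. Against it, 0 of 15362 genes passed an adjusted p of 0.05 in the permutation test of Pearson's r, with 834 positive (5.43%) and 496 negative (3.23%) at an unadjusted p under 0.05, and 0 passed with Spearman's rho. Rasd1, Rasd2, Rasgrp1, Rasgrp2 and Rap1gap were among the positive ones. Rasd2 gave r = 0.91 (rho = 0.83, permutation p = 0.00102, adjusted p = 0.149), and r = 0.93 without m44 and m57, the 2 libraries farthest from the median score. Its r was 0.20 within codes 1 to 7 and -0.09 within codes 9 to 14, so the pooled value was matched inside neither set.

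For Rasgrp1 the pooled r was 0.87 (rho = 0.82, permutation p = 0.00087, adjusted p = 0.148), 0.81 without m44 and m57, 0.94 within codes 1 to 7 and 0.25 within codes 9 to 14. Library m74 was lowest in both the score and Rasgrp1.

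Rasd1 gave r = 0.83 (rho = 0.91, permutation p = 0.00208, adjusted p = 0.18), with 0.59 within codes 1 to 7 and 0.57 within codes 9 to 14. Rasgrp2 also gave 0.83 (rho = 0.72, permutation p = 0.00189, adjusted p = 0.18), with -0.17 and 0.14 within the sets. Without m44 and m57 these became 0.82 and 0.87. Rap1gap gave 0.67 (rho = 0.66, permutation p = 0.0284, adjusted p = 0.481), 0.47 without those 2 libraries and 0.88 without m61. Within codes 1 to 7 it gave -0.10 and within codes 9 to 14 0.77. Rasgrf2 (r = 0.56, rho = 0.57, permutation p = 0.0643, adjusted p = 0.627) and Rasgrf1 (r = -0.33, rho = -0.14, permutation p = 0.331, adjusted p = 0.963) were the 2 members not past an unadjusted 0.05. Without m44 and m57 they gave 0.37 and -0.58. Rasgrf2 gave 0.60 within codes 1 to 7 and 0.53 within codes 9 to 14, and Rasgrf1 gave 0.13 and 0.72.

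The 4 other marker and response scores gave no call for any of the 7. The activity-induced score, built on immediate early genes, was related to Rasd2 with r = 0.70 (rho = 0.79, permutation p = 0.00617, adjusted p = 1) and to Rasgrp2 with r = 0.69 (rho = 0.65, permutation p = 0.0112, adjusted p = 1). Within codes 1 to 7 these were 0.24 and -0.32, within codes 9 to 14 they were 0.45 and 0.53, and without the 2 libraries farthest from the median score 0.60 and 0.46. The glutamatergic score gave r from -0.27 to 0.28 over the members and the neuroblast score from -0.45 to -0.08. For Rasd1 the glucocorticoid-induced score gave r = 0.15 (rho = 0.05, permutation p = 0.651, adjusted p = 1). For each of these 4 scores 0 genes passed the adjusted threshold in the permutation test. At an unadjusted p under 0.05, 1.18% of genes were positive and 0.566% negative for the glutamatergic score, 1.97% and 0.918% for the neuroblast score, 1.78% and 1.52% for the activity-induced score, and 1.76% and 1.32% for the glucocorticoid-induced score.

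The length measure subtracts the median centred log2 level of the shortest 10% of genes from that of the longest 10%. It shows how far long transcripts are represented in a library. Rasgrf2 was the 1 member related to it, with r = 0.69 (rho = 0.80, permutation p = 0.0123, adjusted p = 0.0419), 0.85 without m57 and m61, 0.97 within codes 1 to 7 and 0.85 within codes 9 to 14. Against the same measure 17.1% of all genes were called positive and 14.5% negative. The genes of the longest and shortest 10% stayed among those tested, unlike the genes of the other scores. These shares and the adjusted p therefore include genes that make up the measure, which can lower the adjusted p of Rasgrf2. The members were not used in building it. The Rasgrf2 call was lost when any 1 library other than m49 or m61 was left out, or when the filter on low counts was dropped. Over all settings with a test the adjusted p ran from 0.0195 to 0.1. Pearson's r in them stayed between 0.65 (without m74) and 0.79 (without m61). Rasgrp1, whose pooled r was 0.18 (adjusted p = 0.705 by permutation), gave 0.87 within codes 1 to 7 and 0.50 within codes 9 to 14. In the 6 libraries coded 1 to 7 Rasgrp1 thus moved with both the length measure and the projection neuron score, and the part of either was not tested.

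**Figure D3:**
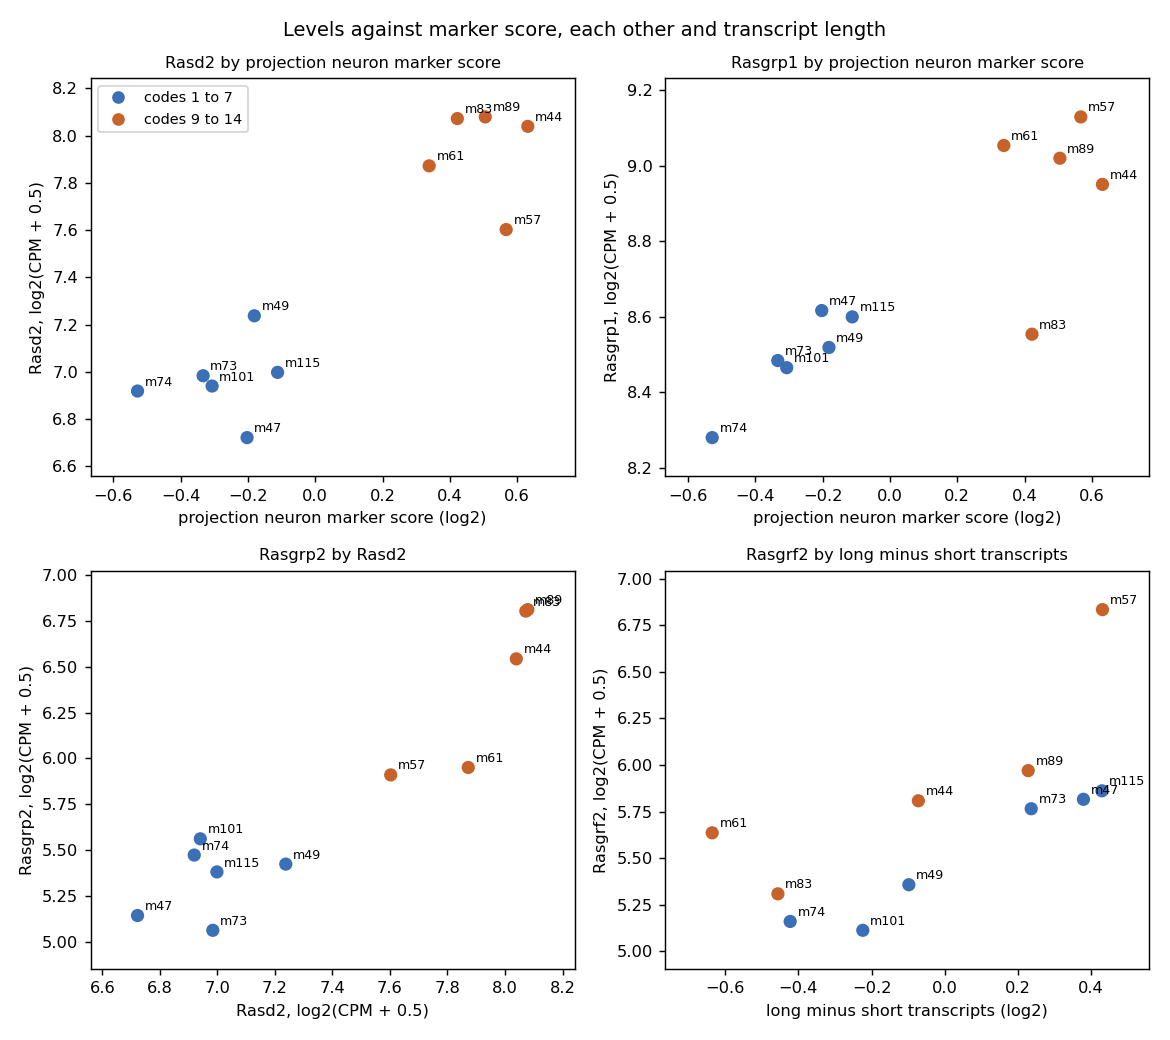
Log2 levels of Rasd2 and Rasgrp1 against the projection neuron marker score, of Rasgrp2 against Rasd2, and of Rasgrf2 against the length measure, 1 point per library, coloured by code. The score splits the codes at a gap from -0.11 to 0.34, r within codes 1 to 7 and within codes 9 to 14 is 0.20 and -0.09 for Rasd2 and 0.94 and 0.25 for Rasgrp1, and Rasgrf2 is higher where the length measure is higher (0.97 and 0.85).

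Of the 21 pairs, 0 passed an adjusted p of 0.05 by the permutation test and 8 had an unadjusted p under 0.05, all with positive pooled r. Over all genes, the shares positive and negative at an unadjusted p under 0.05 were 4.28% and 1.94% for Rasd1, 6.28% and 3.88% for Rasd2, 5.15% and 5.76% for Rasgrp1, and 5.12% and 3.2% for Rasgrp2. They were 8.08% and 2.49% for Rasgrf1, 12.8% and 9.52% for Rasgrf2, and 5.55% and 2.73% for Rap1gap. The closest pair was Rasd2 and Rasgrp2, with r = 0.93 (rho = 0.84, permutation p = 4e-05, adjusted p = 0.0591), 0.91 once the 2 libraries with Rasd2 levels farthest from the median were dropped. Within codes 1 to 7 the pair gave 0.34 and within codes 9 to 14 0.89. Rasd2 was 9.41 to 14.9 times as high as Rasgrp2 per kilobase of exon, and 1.97 to 3.13 times as high per kilobase of the longest coding transcript, a narrower spread on either scale than that of either gene. Ranked by r among all other genes, Rasgrp2 was number 23 in likeness to Rasd2, and Rasd2 was number 10 in likeness to Rasgrp2.

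Rasd1, Rasd2, Rasgrp2 and Rap1gap were positively related in all 6 of their pairs, with pooled r from 0.66 to 0.93. Within codes 1 to 7 their 6 values ran from 0.34 to 0.76 and within codes 9 to 14 from 0.24 to 0.89. Rasgrp2 and Rap1gap gave r = 0.76 pooled (rho = 0.61, permutation p = 0.00803, adjusted p = 0.375), 0.76 within codes 1 to 7 and 0.57 within codes 9 to 14. Rasd2 and Rap1gap gave 0.66 (rho = 0.58, permutation p = 0.0324, adjusted p = 0.545), 0.71 and 0.24. Rasd1 with Rasgrp2 gave 0.88 (rho = 0.77, permutation p = 0.00068, adjusted p = 0.29), 0.34 and 0.85. These 3 pairs thus differed in which set held the higher value. Rasd1 with Rasd2 gave 0.83 (rho = 0.82, permutation p = 0.00213, adjusted p = 0.341), 0.35 and 0.69, and with Rap1gap 0.84 (rho = 0.77, permutation p = 0.00174, adjusted p = 0.34), 0.53 and 0.86. With the 2 libraries of most extreme level of the first gene dropped, the 5 pooled values became 0.69, 0.52, 0.79, 0.72 and 0.67 in the order given.

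Rasgrp1 and Rasgrf2 gave the highest r of the pairs of exchange factors, with r = 0.74 pooled, 0.75 within codes 1 to 7 and 0.74 within codes 9 to 14 (rho = 0.76, permutation p = 0.00442, adjusted p = 0.213), and 0.72 without the 2 libraries of most extreme Rasgrp1. Rasgrp1 and Rasgrp2 gave r = 0.54 pooled but -0.42 and -0.66 within the sets. Rasd2 and Rasgrp1 gave r = 0.69 pooled (rho = 0.57, permutation p = 0.0247, adjusted p = 0.39), and 0.83 without the 2 libraries of most extreme Rasd2. Within codes 1 to 7 this pair gave -0.09 and within codes 9 to 14 -0.60. Rasgrf1 gave r from -0.40 to 0.19 with the other members over all libraries, while with Rasd2 it gave 0.86 within codes 1 to 7 and -0.52 within codes 9 to 14, and with Rap1gap 0.80 and 0.70.

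**Figure D4:**
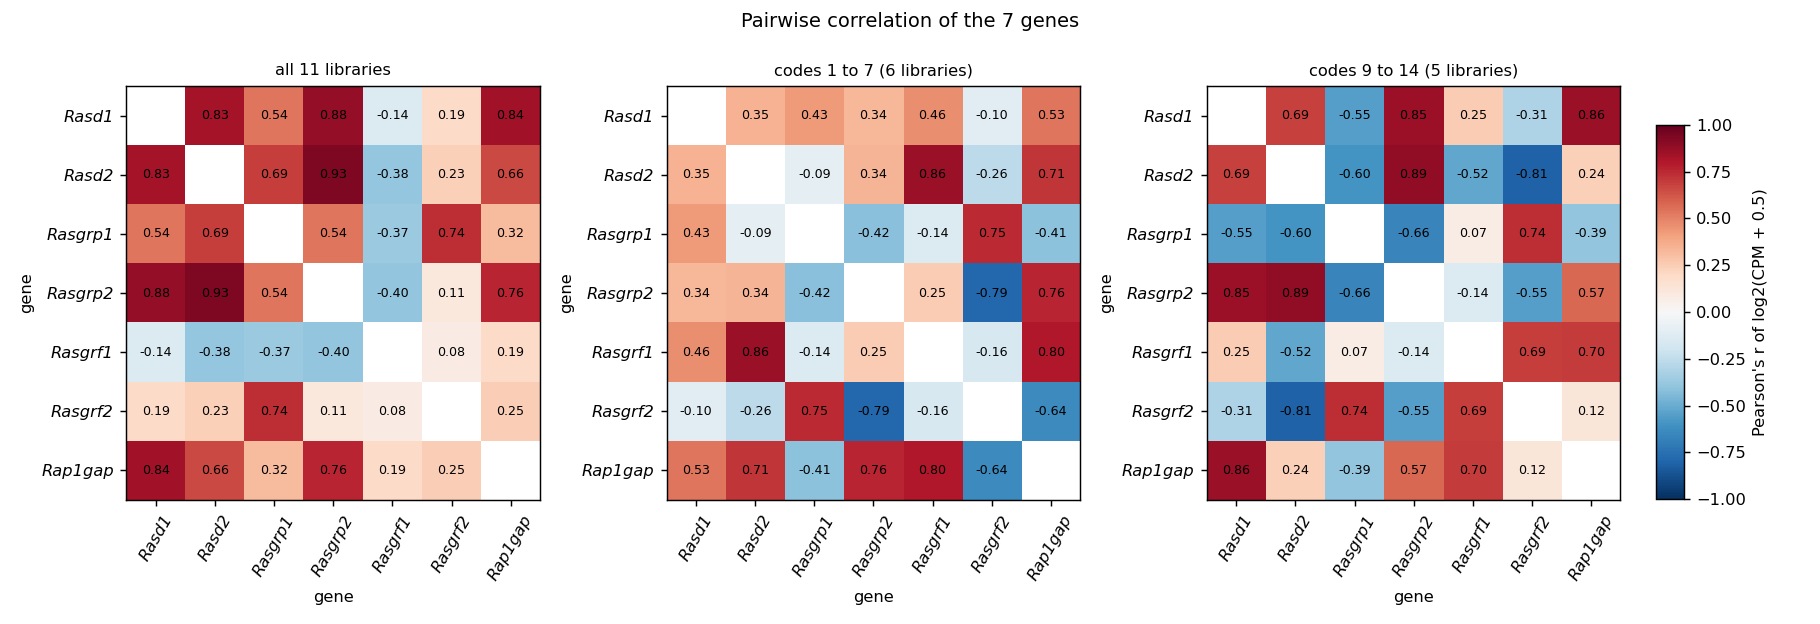
Pearson's r for each of the 21 pairs, over all 11 libraries (left), within the 6 libraries coded 1 to 7 (middle) and within the 5 coded 9 to 14 (right), on a colour scale from -1 to 1. The 6 pairs among Rasd1, Rasd2, Rasgrp2 and Rap1gap are positive in all 3 panels, and Rasd2 with Rasgrp2 gives 0.93, 0.34 and 0.89.

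For each member, the 3 genes outside the 7 with the highest r over the 11 libraries were listed as a measure of likeness, and the values in brackets are r over all libraries, within codes 1 to 7 and within codes 9 to 14. Rasd2 was most like Serpina9, a serine protease inhibitor gene (0.99, 0.85, 0.93), Lrrc10b (0.97, 0.30, 0.98) and Ier5l (0.97, 0.61, 0.85). Rasgrp2 shared Serpina9 (0.96, 0.50, 0.97) and was most like Plk5, of the polo-like kinase family (0.98, 0.77, 0.95), followed after Serpina9 by Kcnip2, a subunit partner of potassium channels (0.95, 0.76, 0.87). Rasd1 was most like Stra6, the membrane receptor through which cells take up retinol from its binding protein (0.95, 0.91, 0.97), then Rgs20 (0.94, 0.88, 0.90) and Lzts3 (0.93, 0.84, 0.87). The lowest of these within-set values was that of Rasd2 and Lrrc10b in codes 1 to 7.

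Rasgrp1 was most like the Wnt receptor gene Fzd4 (0.95, 0.93, 0.99), Dclk1 (0.95, 0.87, 0.94) and the serotonin receptor gene Htr1b (0.94, 0.91, 0.98). Rasgrf2 was most like Myt1l, a neuronal transcription factor gene (0.98, 0.98, 0.98), the presynaptic gene Erc2 (0.98, 0.98, 0.97) and Lrrk2 (0.98, 0.96, 0.98). Rasgrf1 was most like the chromatin remodeller gene Chd3 (0.95, 0.91, 0.98), Mapk8ip3 (0.95, 0.92, 0.97) and Fbxl18 (0.94, 0.92, 0.94). Among the genes most like Rap1gap were Zfyve28 (0.93, 0.56, 0.94) and Ankrd13b (0.93, 0.80, 0.96).

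The number of genes whose relation to a member passed an adjusted p of 0.05 in the permutation test of Pearson's r differed between members. For Rasgrf2 it was 301 positive (1.96% of genes) and 128 negative (0.833%). For Rasgrp2 it was 16 (0.104%) and 1 (0.00651%), and for Rasgrp1 9 (0.0585%) and 3 (0.0195%). For Rasd1, Rasd2, Rasgrf1 and Rap1gap it was 0, against the shares at an unadjusted p given above for the pairs. These counts depend in part on the smallest p the permutations can give, 1e-05. At that permutation p, Serpina9 with Rasd2 had an adjusted p of 0.0591 and Stra6 with Rasd1 0.0769. A count of 0 therefore does not show that a member has no relations. With Spearman's rho, Rasgrf2 had 233 positive (1.52%) and 275 negative (1.79%) and the other 6 members had 0.

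Most other genes of the pathway overlapped between the codes. Of 98 on 4 lists, 97 were kept, 35 had a ratio of highest to lowest of 2 or more (48.6% of all genes kept), and 3 were higher in codes 9 to 14 without overlap, which is to be read against the 1.67% of all genes, with 0 lower. Their median log2 difference between the codes was 0.03 and their median coefficient of variation 0.175. Against the projection neuron score 12 of the 97 were positive and 1 negative at an unadjusted p under 0.05, where all genes gave 5.43% and 3.23%, and none passed adjustment.

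The 3 without overlap were all Ras-family GTPases. Rasl10a ranged from 7.13 to 16.2 CPM in codes 1 to 7 and from 21.3 to 33.1 CPM in codes 9 to 14. Rem2, a regulator of calcium channels, ranged from 20.8 to 28.2 and from 33.9 to 46.6 CPM. Rasl11b ranged from 28.8 to 41.7 and from 42.2 to 60.5 CPM. Rasl10b, the most abundant of the 29 GTPases kept per kilobase, overlapped narrowly, at 388 to 519 and 512 to 793 CPM. Of the Ras and Rap genes whose products the members act on, Hras had a log2 difference between codes of 0.39, Rap1a of -0.07 and Rap1b of -0.17, each with overlap. The difference for Rasl11b, which did not overlap, was 0.31, below that of Hras.

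Among 17 other exchange factors, 0 separated the codes and the median log2 difference was -0.07. Rapgef4 (Epac2), the cyclic AMP sensor for Rap, was the most abundant per kilobase and ranged from 187 to 339 CPM in codes 1 to 7 and from 174 to 342 CPM in codes 9 to 14. Rasgrp4, a relative of the members, stood at a median of only 1.85 CPM. Among 23 other GTPase activators, 0 separated the codes and the median was -0.04.

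Among 28 effectors and regulators of the MAP kinase route, 0 separated the codes and the median was 0.08. Ptpn5 (STEP), a striatum-enriched phosphatase of ERK, ranged from 247 to 279.9 CPM in codes 1 to 7 and from 274 to 447 CPM in codes 9 to 14 (r with the projection neuron score 0.85, permutation p = 0.00104, adjusted p = 0.149). The ERK kinase gene Map2k1 ranged from 284 to 352 and from 339 to 421 CPM (r = 0.83, permutation p = 0.00203, adjusted p = 0.18). Mapk3 (ERK1) gave r = 0.27 and Araf -0.44, and Araf was the least variable of the list, with a coefficient of variation of 0.0575.

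Marker lists were set out by code in the same way. No overlap, with higher levels in codes 9 to 14, was seen for 7 of 11 projection neuron markers, 3 of 8 direct-pathway and 4 of 5 indirect-pathway markers, and the median log2 differences were 0.86, 0.74 and 1.497. It was also seen for 2 of 8 interneuron, 1 of 8 oligodendrocyte, 2 of 10 activity-induced and 1 of 9 glucocorticoid-induced genes, and all these counts stand beside 1.67% of all genes kept. For glutamatergic neurons, neuroblasts, astrocytes, microglia and vessels the count was 0. Single projection neuron markers spanned log2 differences from 0.14 (Bcl11b) to 1.26 (Ppp1r1b). This wide range held Rasd2 (1.08), Rasgrp2 (1.14) and Rasd1 (0.97), and also Rasgrp1 (0.52), Rap1gap (0.48) and Rasgrf2 (0.25), while Rasgrf1 (-0.16) lay below it. The part of these cell types in the members' values was not tested.

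**Figure D5:**
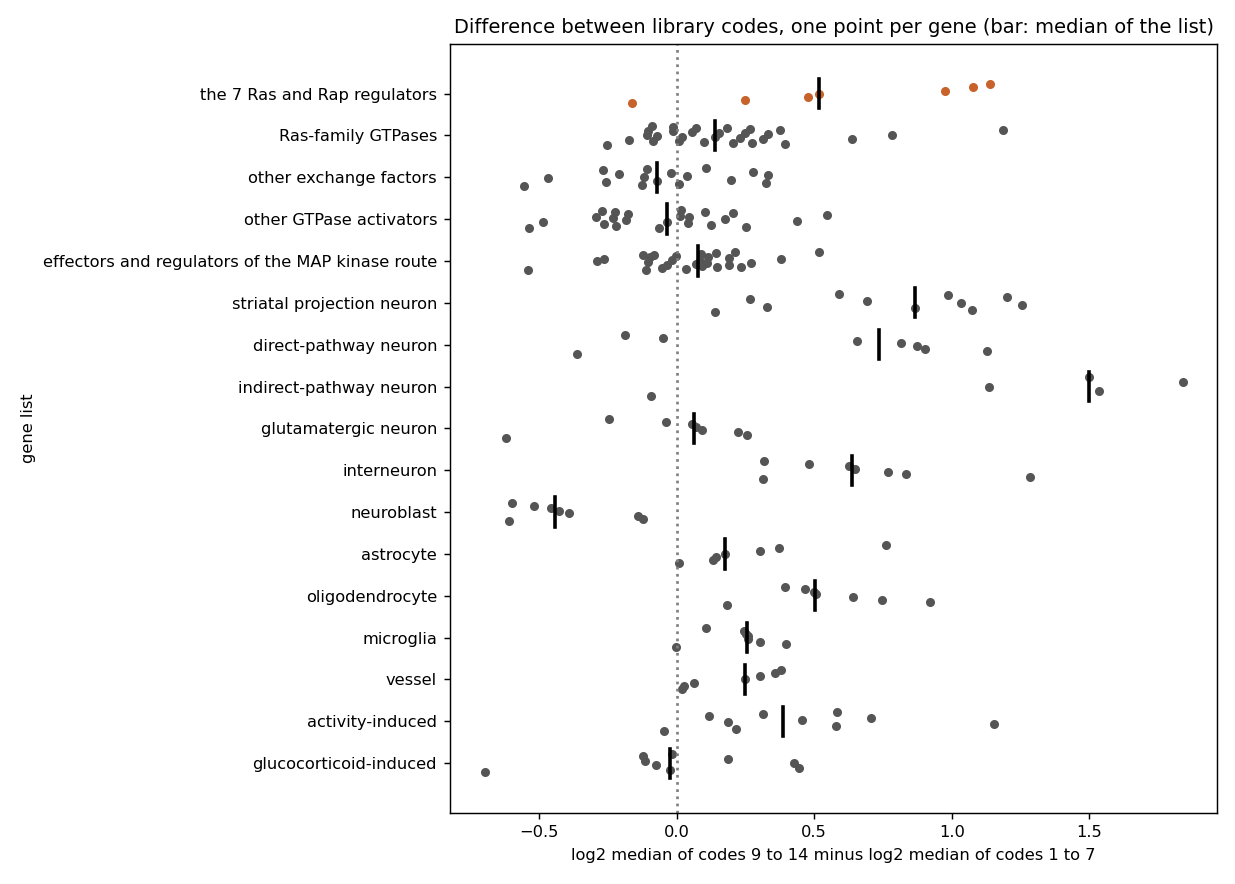
Log2 of the median CPM in codes 9 to 14 minus that in codes 1 to 7 for every gene of each list, 1 point per gene, with a bar at the median of the list and a dotted line at 0. The members (top) have a median of 0.52 and a range from -0.16 to 1.14, the 4 pathway lists have medians between -0.07 and 0.14, and the indirect-pathway markers have the highest median, 1.497.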

How the data were processed

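Poly(A) RNA of 11 libraries was analysed. The authors deposited unnormalized read counts for each gene. According to the submitters' processing notes, reads were handled with HTSeq 0.6.1, Bowtie2 2.1.0, TopHat2 2.0.14 and bcl2fastq 2.17.1.14 on mm10. Neither the strand setting nor the annotation release is given in the sources used, so reads of a gene and its antisense partner could be mixed. Of 52550 identifiers, 52403 matched GENCODE M21.

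Counts were scaled by TMM in edgeR 4.0.16 (R 4.3.3) and given as CPM. The filter kept genes that reached 1 CPM in 3 or more libraries and whose median count was 10 or more. Biological coefficients of variation came from edgeR with an intercept only. Poisson intervals are exact. A level of 3 counts corresponded to 0.0619 to 0.133 CPM. Permutation tests used a pseudocount of 0.5, and 1e-05 is the smallest p they can give. Adjusted over all genes kept, a gene alone at that p does not pass 0.05. For members with scores and with each other, the pooled r was kept only without a wide gap in either measure. A wide gap is one over 0.5 of the range with 2 or more libraries on each side. No such relation was left out for that reason. Gaps were not checked for the r of other genes or for r within the code sets. The relation script was tested on simulated data. DESeq2 1.42.0 size factors, unscaled totals, no filter, a pseudocount of 2 and leaving out each library were the alternatives.

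The 7 genes, the gene lists, the tests and the split by library code were chosen with earlier results of these data known. The genes named are the 7, the 3 most like each by r, and in each list those picked for abundance per kilobase, coefficient of variation or r with the projection neuron score; a few genes that meet this rule are not reported here. Hras, Rap1a, Rap1b and Rasl11b were named in addition, after their values were seen. No label says how the animals relate to each other, so the permutation p-values treat the libraries as interchangeable. They take no account of the split by library code and reach no further than these libraries.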

Additional observations from a re-analysis of the deposited data

How the results depend on the processing

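Depth limits Rasd1 most, since its levels rest on 82 to 329 counts. Without group labels, none of these values compares genotypes. The number of members with a ratio of highest to lowest of 2 or more was 4, and ranged from 3 (without m57) to 5 (unscaled library totals). The number higher in codes 9 to 14 without overlap was 2 and ranged from 2 to 3, and Rasd2 and Rasgrp2 were among them in every setting run. Over the same settings the share of all genes kept ranged from 1.22% with unscaled totals to 2.68% without m49. The number of members related to the length measure was 1, became 0 with no filter on low counts, and ranged from 0 to 1 when each library was left out in turn; the cause was not tested. The number of members related to any other score, and of related pairs, was 0 in every setting run, and the adjusted p of Rasd2 with Rasgrp2 ranged from 0.0512 to 0.438. For relations with an unadjusted permutation p under 0.05, r kept its sign in every alternative setting. Within the code sets some signs did change. Rasd2 with Rasgrp1 gave -0.09 in codes 1 to 7 and -0.60 in codes 9 to 14, and Rasgrp2 with the projection neuron score gave -0.17 in codes 1 to 7. No paired analysis was possible because the labels put no library in a group.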
